A study of Mus musculus with 3 samples.

Results

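The genes described here are 10 ligand genes of the TGF-β superfamily, namely Bmp2, Bmp4, Bmp5, Bmp6, Bmp7, Nodal, Lefty1, Lefty2, Inhba and Inhbb. They were chosen by family, as BMP, Nodal and activin ligands with the Lefty antagonists, and not by a value measured here. Earlier results of these data were, however, known when they were chosen. They are 10 of 22350 protein-coding genes on the autosomes and the X chromosome. All 10 were found in the annotation and all 10 are accounted for below. The values are regions of the genome enriched in ChIP-Seq, an assay that sequences the DNA bound to an immunoprecipitated protein.

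The study compared where wild-type H2A.Z and an acidic patch mutant are found in mouse embryonic stem cells (ESCs). There were 3 libraries, 1 per group, so no value below has a replicate error and no test between libraries was possible. The H2A.Z WT library came from ESCs that expressed YFP-tagged wild-type H2A.Z. The H2A.Z AP3 library came from ESCs that expressed a YFP-tagged H2A.Z in which 3 residues of the acidic patch, a negatively charged surface of the nucleosome, were exchanged for those of H2A. In both lines the transgene was delivered by lentivirus under a CMV promoter with a doxycycline-inducible rtTA system, and was induced with 1 µg/ml doxycycline, after which YFP-positive cells were sorted. Both lines also carried a short hairpin that targets the transcript of the endogenous H2A.Z gene, with blasticidin selection, and chromatin was precipitated with an anti-GFP antibody, so untagged H2A.Z was not measured. The remaining library was labelled as wild type and was made with an antibody against H3K27me3, whose maker the labels and the methods give differently. The labels give strain V6.5, a 129SvJae by C57BL/6 hybrid line, for all 3 libraries, although the treatment field says that KH2 cells were infected to make both transgenic lines. The cells were grown on irradiated fibroblast feeders until the final passage. The WT and AP3 libraries therefore report a tagged transgene product and not the endogenous protein.

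BMPs, Nodal and activins are secreted dimers that bind paired type I and type II serine/threonine kinase receptors and signal through Smad proteins. Nodal and activin signalling patterns mesoderm and endoderm in the early embryo, BMP signalling patterns mesoderm and ectoderm and acts with LIF on self-renewal of ESCs, and Lefty proteins hold Nodal signalling back. H2A.Z is a histone variant placed in nucleosomes that flank promoters. H3K27me3 is deposited by Polycomb repressive complex 2, and in ESCs it marks promoters of many developmental genes that are silent or expressed at low levels.

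In short, H2A.Z WT and H3K27me3 regions lay within 2 kb of the starts of most of these ligand genes, and H2A.Z AP3 regions were few and short there. A gene was counted as called by a library where at least 1 region of that library's list shared at least 1 bp with the 2 kb on either side of any annotated transcript start. In the lists made at the threshold of 1e-9, H2A.Z WT called 7 of 10 members, beside 61.7% of all protein-coding genes. H3K27me3 called 8 of 10 members, beside 18.2% of all genes. H2A.Z AP3 called 3 of 10 members, beside 23.2%. The members' share lay furthest from that of all genes for H3K27me3, and the shares for WT and AP3 were near theirs. Since the lists hold positions without heights or read counts, a gene with no region is one where no bin passed the threshold at an unknown depth, not one shown to lack the protein or mark.

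The promoter sequences differed widely in CpG content. The 200 bases before the most upstream start of 6 members are printed 5′ to 3′ in the direction of transcription, from the mm9 (NCBIM37) genome to which the reads were aligned, with every CpG in capitals. Bmp2 and Bmp7 are shown as the CpG-dense members with regions of WT and H3K27me3, Bmp5 and Nodal as the members with no region of any library within 2 kb, and Lefty1 and Lefty2 as neighbouring paralogs with different calls. None of these stretches overlaps an annotated exon.
Bmp2, chr2:133377695-133377894, + strand: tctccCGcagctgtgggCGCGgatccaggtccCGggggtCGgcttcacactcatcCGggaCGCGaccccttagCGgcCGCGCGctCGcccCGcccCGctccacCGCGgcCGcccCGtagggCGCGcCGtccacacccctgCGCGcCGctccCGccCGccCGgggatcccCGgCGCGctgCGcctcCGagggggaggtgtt
Bmp7, chr2:172765823-172766022, - strand: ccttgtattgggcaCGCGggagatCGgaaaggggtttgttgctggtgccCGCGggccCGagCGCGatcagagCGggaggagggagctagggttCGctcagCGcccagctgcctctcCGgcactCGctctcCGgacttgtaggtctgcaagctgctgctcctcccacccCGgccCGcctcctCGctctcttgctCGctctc
Bmp5, chr9:75622971-75623170, + strand: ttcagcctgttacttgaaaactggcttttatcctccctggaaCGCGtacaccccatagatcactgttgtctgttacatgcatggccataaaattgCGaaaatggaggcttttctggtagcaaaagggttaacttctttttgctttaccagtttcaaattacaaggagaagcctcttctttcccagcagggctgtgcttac
Nodal, chr10:60880520-60880719, + strand: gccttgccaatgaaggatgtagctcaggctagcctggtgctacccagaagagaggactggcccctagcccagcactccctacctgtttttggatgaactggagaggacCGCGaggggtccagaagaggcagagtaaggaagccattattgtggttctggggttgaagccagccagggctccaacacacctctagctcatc
Lefty1, chr1:182864953-182865152, + strand: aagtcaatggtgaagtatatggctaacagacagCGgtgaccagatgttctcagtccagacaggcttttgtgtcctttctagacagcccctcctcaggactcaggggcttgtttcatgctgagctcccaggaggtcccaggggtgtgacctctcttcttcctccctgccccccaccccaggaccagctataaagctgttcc
Lefty2, chr1:182823039-182823238, + strand: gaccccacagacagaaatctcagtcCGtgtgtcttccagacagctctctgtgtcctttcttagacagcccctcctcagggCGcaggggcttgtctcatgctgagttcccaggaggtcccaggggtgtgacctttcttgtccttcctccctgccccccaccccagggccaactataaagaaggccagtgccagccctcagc

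These stretches held 33 CpGs at Bmp2 and 18 at Bmp7, against 3 at Bmp5, 2 at Nodal, 1 at Lefty1 and 2 at Lefty2. The Lefty1 and Lefty2 stretches were alike in sequence, with 159 identical positions in 219 aligned columns, or 72.6%. Both hold the letters TATAAA close to the start. Over both strands of these 200 bases, TATAAA was found in 3 of 10 members, namely Lefty1, Lefty2 and Inhba, beside 10.0% of all protein-coding genes. The core letters of the FoxH1 motif, AATCCACA or AATACACA, were in none of the members and in 1.18% of all genes. GGCGCC, a GC-rich motif of Smad proteins, was also in no member, beside 9.92% of all genes. A match is a run of letters and not a site of binding, and a window without one says only that the letters are not there.

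The stricter lists, made at 1e-12, gave nearly the same picture for H2A.Z WT and H3K27me3 and a different one for AP3. H2A.Z WT called 8 of 10 members at 1e-12, beside 60.0% of all genes, the added gene being Lefty1. H3K27me3 called the same 8 members, beside 15.7%. H2A.Z AP3 called none of the 10, beside 18.8% of all genes. Thus none of the 3 AP3 calls of the main list was found in the list of 1e-12. The AP3 count at the members lay above the share of all genes in the main list and below it in the stricter one.

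Taking the 3 libraries jointly at 1e-9, Bmp6, Bmp7 and Inhba were called by all of them, a combination found at 7.90% of all genes. Bmp2, Bmp4, Lefty2 and Inhbb were called by H2A.Z WT and H3K27me3 without AP3, beside 9.39% of all genes. Lefty1 was called by H3K27me3 alone, which was so for 0.774% of all genes. Bmp5 and Nodal were called by no library, beside 36.3%. No member carried H2A.Z WT without H3K27me3, whereas 30.4% of all genes had WT alone and a further 14.0% had WT with AP3. Among the 3864 genes with both a WT and an H3K27me3 region, 45.7% also had an AP3 region, and 3 of the 7 members of that kind did. When the AP3 list of 1e-12 was used for those genes, 36.4% had an AP3 region and 0 of the 7 members did.

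**Figure D1:**
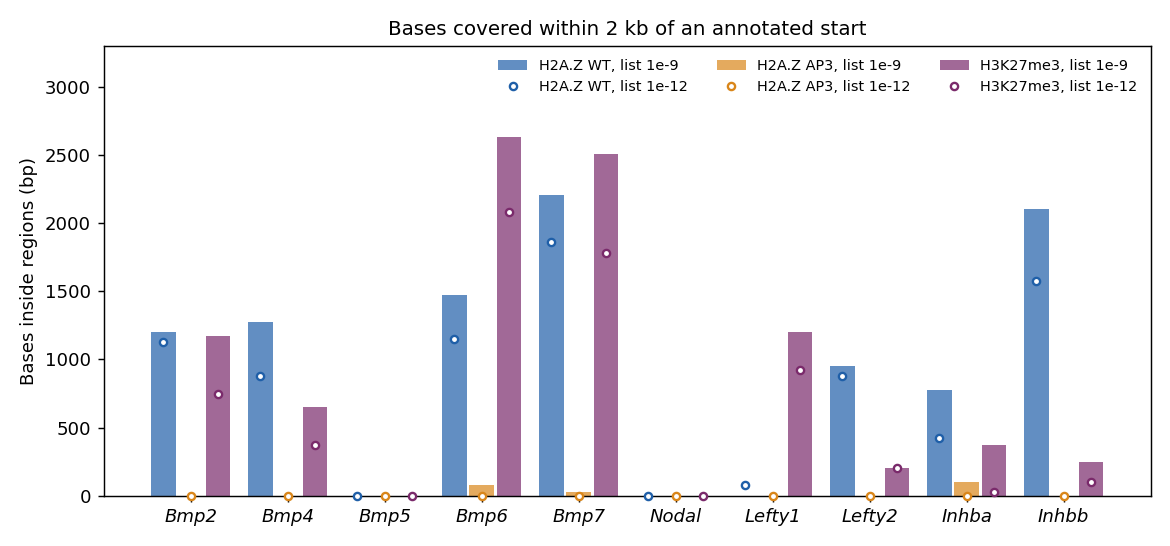
Bases inside enriched regions within 2 kb of an annotated start (y axis, bp) for each of the 10 ligand genes (x axis), with bars for the lists of 1e-9 and open circles for the lists of 1e-12, coloured by library, 1 library each and so no error bars. The WT bars reach 2208 bp at Bmp7 and the H3K27me3 bars 2635 bp at Bmp6, while no AP3 bar exceeds 100 bp and every AP3 circle lies at 0.

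The number of bases covered by regions gave a measure of extent that does not depend on a single bin. Over the 10 members, a median of 1075 bp within 2 kb of a start lay in H2A.Z WT regions, beside a median of 300 bp over all protein-coding genes. For H3K27me3 the median was 512.5 bp over the members and 0 bp over all genes. For AP3 both medians were 0 bp, and the highest member value was 100 bp. Among called genes only, the members' median was 1275 bp against 650 bp for WT, 910 bp against 1000 bp for H3K27me3 and 75 bp against 200 bp for AP3. At 1e-9 the members that H3K27me3 called were thus covered to about the usual extent in the median, from 200 bp at Lefty2 to 2635 bp at Bmp6. At 1e-12 their median was lower, 560 bp against 800 bp for called genes. WT covered its called members more than usual and AP3 less, the AP3 median resting on 3 genes. Windows are wider at genes with several starts, from 4001 bp at Bmp2, Nodal and Inhbb to 8002 bp at Bmp5.

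**Figure D2:**
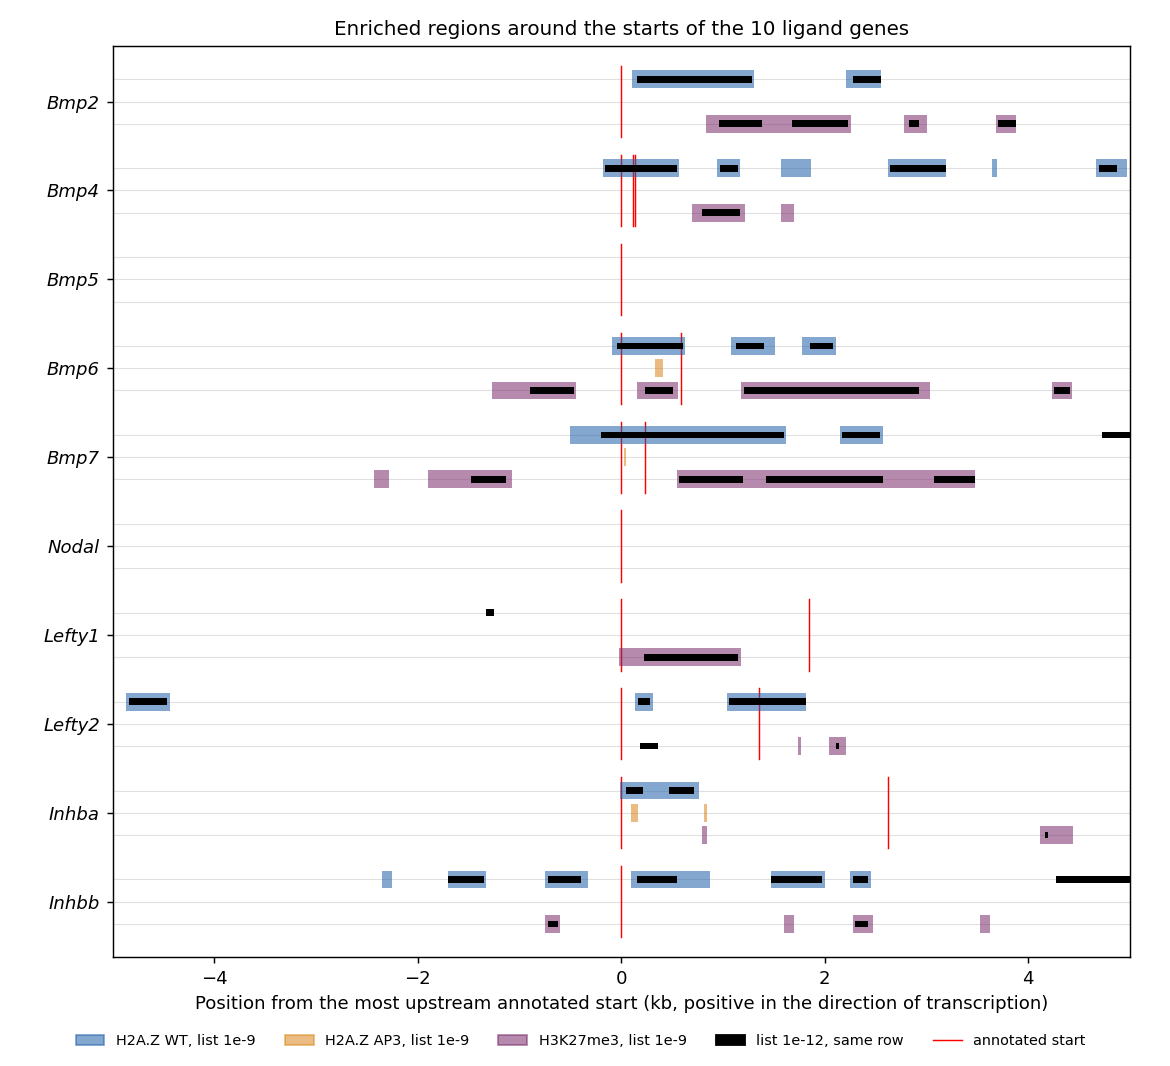
Enriched regions within 5 kb on either side of the most upstream annotated start of each ligand gene (x axis, kb, positive in the direction of transcription), with H2A.Z WT in the upper row of each gene, AP3 in the middle and H3K27me3 in the lower row. Coloured bars are regions of the lists of 1e-9, black bars those of 1e-12 and red lines annotated starts. WT and H3K27me3 regions lie mostly on the downstream side, the 4 AP3 regions of the main list are at Bmp6, Bmp7 and Inhba, and Bmp5 and Nodal are empty.

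Bmp2 encodes a BMP that acts in heart and bone formation. Its single start lies at chr2:133377895 on the + strand. An H2A.Z WT region of 1200 bp ran from position +106 to +1305 of that start, over an untranslated exon by its midpoint, and a further one of 350 bp at +2206 to +2555 lay in coding sequence. The H3K27me3 region nearest the start was 1425 bp long and ran from +831 to +2255, so that it began inside the WT region and went on beyond it, with 475 bp of the WT bases in common. At 1e-12 the covered bases within 2 kb were 1125 bp for WT and 745 bp for H3K27me3. AP3 had no region there in either list, and its nearest region of the main list was 672095 bp away. Bmp2 was thus the member whose start lay furthest from an AP3 region.

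Bmp2 was also a target of the ChIP primers the study designed, and these can be placed on the regions. The pair is shown because its product falls in the part of the locus where the libraries differ.
Bmp2 forward primer: aggctgccacaaaagacact
Bmp2 reverse primer: catccctcagcctgactctg
The product of 179 bp matched chr2:133378341-133378519 in mm9, at +446 to +624. All 179 bp lay in the WT region in both lists, and 0 bp lay in an AP3 or an H3K27me3 region, since the H3K27me3 region starts downstream of it. The pair named Bmp2-CR, which the study describes as a coding region of Bmp2, matched a product of 167 bp at +22139 to +22305. It lay 11413 bp past the annotated end of the gene and in no region of any list.

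Bmp4 encodes a BMP needed for mesoderm formation, and it has 3 annotated starts within 134 bp at chr14:47003195-47010344 on the - strand. H2A.Z WT covered 1275 bp in 3 regions, the longest of 750 bp from -181 to +568 across all 3 starts. H3K27me3 covered 650 bp in 2 regions, of which the larger ran from +694 to +1218 in an intron, downstream of the WT region at the start. The H3K27me3 regions thus left the start itself uncovered. Both marks kept a region at 1e-12, with 875 bp for WT and 375 bp for H3K27me3. AP3 had none within 2 kb, but an AP3 region of 125 bp at -7906 to -7782, inside an intergenic WT region of 625 bp, was the only AP3 region of the main list at any member that still held a region at 1e-12.

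Bmp6 and Bmp7, close relatives of Bmp5, encode BMPs with roles in bone, kidney and iron regulation. Bmp6, at chr13:38436995-38592183 on the + strand, had the most H3K27me3 of all members, 2635 bp in 3 regions, more than at 97.3% of protein-coding genes. H2A.Z WT covered 1475 bp there in 3 regions, the longest from -94 to +630, and 71.2% of those bases were also in H3K27me3 regions. An H3K27me3 region of 825 bp from -1269 to -445 lay upstream, where there was no WT region. The AP3 region of Bmp6 was 75 bp long, at +331 to +405 in an untranslated exon, inside both a WT and an H3K27me3 region.

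Bmp7, at chr2:172693513-172765822 on the - strand, had the most H2A.Z WT of the members, 2208 bp in 2 regions, more than at 97.1% of protein-coding genes. Its main WT region of 2125 bp ran from -503 to +1621. H3K27me3 covered 2508 bp, in a region of 2925 bp from +547 to +3471 and in another of 825 bp from -1903 to -1079. At the Bmp7 start there was thus a stretch from -1079 to +547 without H3K27me3 regions, most of it covered by WT. The AP3 region was a single bin of 25 bp, at +22 to +46 in an untranslated exon, inside the WT region and outside H3K27me3. Bmp7 with 10 kb of flank on each side carried 10 WT regions with 5572 bp, of which 5 were intergenic. Within the gene lay a region of 1400 bp in an intron at +25297 to +26696 that held an AP3 region of 100 bp.

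Bmp5, at chr9:75623171-75748117 on the + strand, differed from these relatives, with 0 bp of each library within 2 kb of either of its starts in both lists. H2A.Z WT had 3 regions further into the gene, all in introns, of 250 bp at +8180, 200 bp at +101730 and 225 bp at +119805. Each held a region at 1e-12. The nearest AP3 and H3K27me3 regions lay 148796 bp from a start. Bmp5 also had the lowest CpG content of the members, with 9 CpGs within 500 bp of its most upstream start.

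Nodal encodes the ligand that induces mesoderm and endoderm and patterns the left-right axis. At its single start, chr10:60880720 on the + strand, all 3 libraries had 0 bp within 2 kb in both lists. The nearest H2A.Z WT region was 275 bp long, 9620 bp upstream in intergenic sequence, and held a region of 175 bp at 1e-12. The nearest AP3 region was 57831 bp away and the nearest H3K27me3 region 177006 bp away. Nodal was the only member besides Bmp5 with no H3K27me3 region in the gene and its flanks of 10 kb.

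Lefty1 and Lefty2 encode antagonists of Nodal and lie on the + strand of chromosome 1, Lefty2 at chr1:182823239-182829234 and Lefty1 at chr1:182865153-182868531. At Lefty1, H3K27me3 covered 1200 bp in a region from -27 to +1172, with 925 bp at 1e-12, and H2A.Z WT covered 0 bp at 1e-9. At 1e-12 WT had a region of 75 bp, at -1327 to -1253, that shared no base with the H3K27me3 region or with the WT list of 1e-9. At Lefty2 the order was the other way, with WT at 950 bp in 2 regions and H3K27me3 at 200 bp in 2 short regions. The WT regions of Lefty2 ran from +137 to +311 in coding sequence and from +1037 to +1811, across the downstream annotated start of a transcript with a retained intron at +1350. At 1e-9 only an H3K27me3 region of 25 bp, at +1737 to +1761, lay within 2 kb of the protein-coding start. The other, of 175 bp at +2037 to +2211, counted only through that downstream start. At 1e-12 an H3K27me3 region of 175 bp appeared at +187 to +361, next to the Lefty2 start, where the list of 1e-9 had none.

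Since the Lefty genes are paralogs, reads from stretches with the same letters in both cannot be placed by sequence alone. Of 5815 start positions of 36-base words in the Lefty1 window, 301 (5.18%) were also found in the Lefty2 window, and in the Lefty2 window 300 of 5316 (5.64%) were found at Lefty1. The H3K27me3 region of Lefty1 held 0 such positions of 1235. The WT region of 775 bp at Lefty2 held 284 of 810, or 35.1%, whereas its WT region near the start held 0 of 210. The length of 36 bases was a choice, as the read length is not given in the sources used here, and how shared reads were treated was not tested.

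Near Lefty1, H2A.Z WT, AP3 and H3K27me3 all had regions at the neighbouring gene Tmem63a, so calls in the flank of Lefty1 cannot be assigned to either gene. The WT region there was 1925 bp long, from +6598 to +8522 of the Lefty1 start, and the H3K27me3 region was 1975 bp long, from +5398 to +7372. The AP3 region of the main list was 75 bp long. All 75 bp of it lay inside both.

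Inhba and Inhbb encode the βA and βB subunits, which form activins as dimers with themselves or with each other, and inhibins with the α subunit. Inhba, at chr13:16103684-16119044 on the + strand, had a WT region of 775 bp from -8 to +766, which split at 1e-12 into regions of 175 bp and 250 bp. Its H3K27me3 regions within 2 kb of a start, 50 bp at +792 to +841 and 325 bp at +4117 to +4441 by the downstream start, shared 0 bp with the WT region. H3K27me3 there was thin, with 25 bp left at 1e-12. Inhba had the most AP3 of the members, 100 bp, as 75 bp at +92 to +166 inside the WT region and 25 bp at +817 to +841 inside the H3K27me3 region of 50 bp.

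Inhbb, at chr1:121312042-121318825 on the - strand, had 2100 bp of H2A.Z WT in 4 regions on both sides of its start, more than at 96.5% of protein-coding genes. The regions lay at -1700 to -1326, -750 to -326, +100 to +874 and +1475 to +1999. H3K27me3 covered 250 bp, in regions of 150 bp at -750 to -601 and 100 bp at +1600 to +1699, and all 250 bp lay inside WT regions. Set against all genes, Inhba lay above 73.5% of them for WT and above 86.8% for H3K27me3. Inhbb lay above 85.6% for H3K27me3, below its rank for WT. These ranks depend on how many genes each library called, 61.7% for WT and 18.2% for H3K27me3. Among called genes only, both ranked higher for WT than for H3K27me3. Inhba lay above 57.1% for WT and 27.1% for H3K27me3, and Inhbb above 94.3% and 20.6%. AP3 had 0 bp within 2 kb of the Inhbb start in either list.

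Where WT and H3K27me3 were both called, their bases overlapped in part. Over the 7 members with both, the median share of WT bases inside H3K27me3 regions was 27.5%, beside 29.8% over the 3864 genes with both. The members ranged from 0% at Inhba and 2.63% at Lefty2 to 52.4% at Bmp7 and 71.2% at Bmp6. Of all genes with both, 23.2% shared no base, and of the members 1 of 7 did so.

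The regions lay mostly downstream of the start. Within 2 kb of the most upstream start, 83.8% of the members' WT bases were downstream, 8205 bp against 1586 bp upstream, beside 65.4% over all genes. For H3K27me3 the downstream share was 76.2%, beside 61.9%. The 200 bp of AP3 were all downstream, beside 57.1% over all genes. Upstream WT bases came from 5 members, namely Inhbb with 800 bp, Bmp7 with 503 bp, Bmp4 with 181 bp, Bmp6 with 94 bp and Inhba with 8 bp. Upstream H3K27me3 bases came from Bmp6 and Bmp7 with 825 bp each, Inhbb with 150 bp and Lefty1 with 27 bp. The excess of the members over all genes was not tested, as the 10 members are not replicates.

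**Figure D3:**
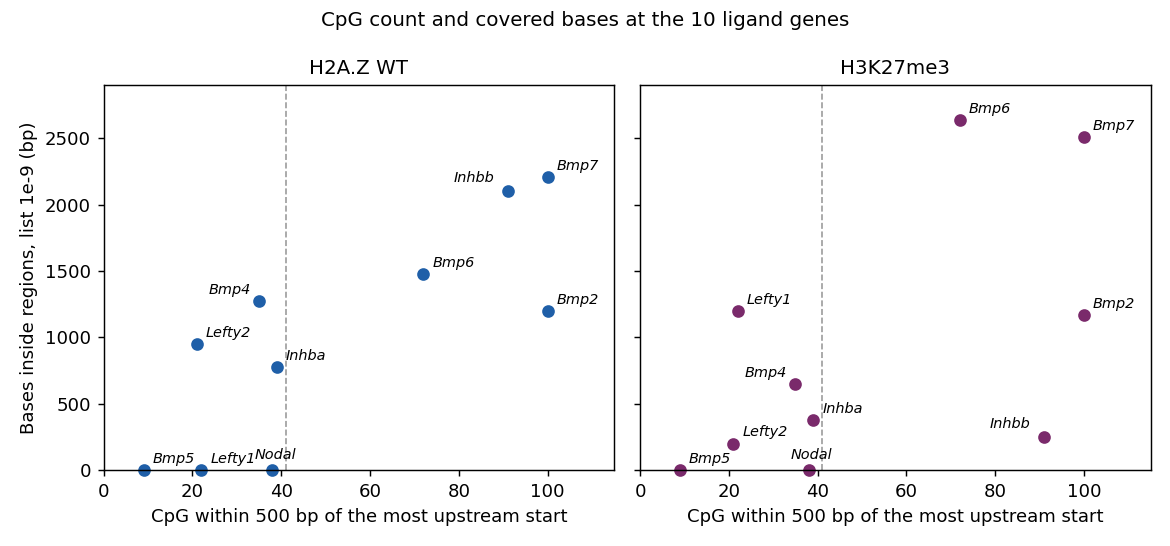
Bases inside regions of the lists of 1e-9 within 2 kb of a start (y axis, bp) against the number of CpGs within 500 bp of the most upstream start (x axis), for H2A.Z WT on the left and H3K27me3 on the right. Each point is a ligand gene and the dashed line is the median of all protein-coding genes, 41 CpGs. The 4 genes right of the line all have both marks, and left of it Bmp5 and Nodal lie at 0 bp in each panel.

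CpG content separated the members into CpG-dense and CpG-poor genes. Within 500 bp of the most upstream start there were 100 CpGs at Bmp2 and Bmp7, 91 at Inhbb and 72 at Bmp6, beside a median of 41 over all protein-coding genes. The other 6 members were below the median, from 39 at Inhba and 38 at Nodal down to 9 at Bmp5. All 4 CpG-dense members had regions of both WT and H3K27me3, beside 82.6% and 26.2% of genes at or above the median. Of the 6 CpG-poor members, 3 had WT, beside 40.7% of genes below the median, and 4 had H3K27me3, beside 10.2%. Bmp4, Lefty1, Lefty2 and Inhba thus had H3K27me3 although they lay below the median, where 10.2% of genes had it. CpGs were counted at the most upstream start, however, and regions at any start. Within 2 kb of the most upstream start, H3K27me3 covered 25 bp at Lefty2 and 50 bp at Inhba. It covered 650 bp at Bmp4 and 1200 bp at Lefty1. At 1e-12 it covered 175 bp at Lefty2 and 0 bp at Inhba by that start. The share at their own CpG counts was not computed, and Bmp4 and Inhba, with 35 and 39 CpGs, lay close to the median. Nodal and Inhba had nearly the same CpG count, 38 and 39, and differed in the calls of all 3 libraries. The points of a panel come from the same library, and no p is attached to this order.

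When the window was widened to the whole gene with 10 kb on each side, H2A.Z WT had a region at 10 of 10 members in both lists, beside 75.1% of all genes at 1e-9 and 72.8% at 1e-12. H3K27me3 had one at the same 8 members in both lists, beside 24.9% and 21.3%. AP3 had one at 6 members at 1e-9, beside 39.3%, and at 4 members at 1e-12, beside 32.6%. The 4 were Bmp4, Bmp7, Lefty1 and Inhbb. Longer genes have more room for a region, and the members range from 3379 bp at Lefty1 to 155189 bp at Bmp6. Of the regions in these wide windows, 45 of 52 WT regions held a region at 1e-12, or 86.5%, beside 75.7% in the whole list. For H3K27me3 it was 20 of 28, or 71.4%, beside 67.7%. For AP3 it was 1 of 10, or 10.0%, beside 55.4%. The AP3 regions at the members were therefore mostly ones that held no region of the list of 1e-12. Their median length was 75 bp, beside 175 bp in the whole list, and length was not matched. The list of 1e-12 is not a subset, as 23.4% of its AP3 regions lay outside the list of 1e-9. The absence of a region there may thus reflect more than the threshold, which was not tested. The longest was 650 bp, at +10269 to +10918 of the Bmp4 start, in an intron of the neighbouring gene Gm15217. It held no region at 1e-12.

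Facts of the whole lists bear on this reading. At 1e-9 the lists held 78359 WT, 14599 AP3 and 16970 H3K27me3 regions, with median lengths of 250, 175 and 250 bp, and 27.6% of AP3 regions were 75 bp or shorter against 14.5% for WT. The number of reads behind each list is unknown, so fewer AP3 regions and a shallower AP3 library cannot be told apart. The genes off chromosomes 6 and 8, the subset that holds all 10 members, were called at 60.5% by WT, 20.5% by AP3 and 18.1% by H3K27me3. Over all genes these shares were 61.7%, 23.2% and 18.2%, so AP3 calls were more frequent on chromosomes 6 and 8. The AP3 share of 23.2% set beside the members thus includes chromosomes where no member lies. The other AP3 shares over all genes or the whole list include them as well and were not recomputed. Why AP3 calls were more frequent on chromosomes 6 and 8 was not tested. Of 9 ESC marker genes, 8 (Pou5f1, Nanog, Sox2, Zfp42, Klf4, Tdgf1, Dppa5a and Fgf4) had no region of any library within 2 kb of a start, and Esrrb had 1375 bp of WT and 2908 bp of H3K27me3. Of 7 fibroblast markers, for the feeders, 6 had WT, 4 had AP3 and 4 had H3K27me3. These lists hold no expression values, and a part of feeder chromatin in the calls was not tested.

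**Figure D4:**
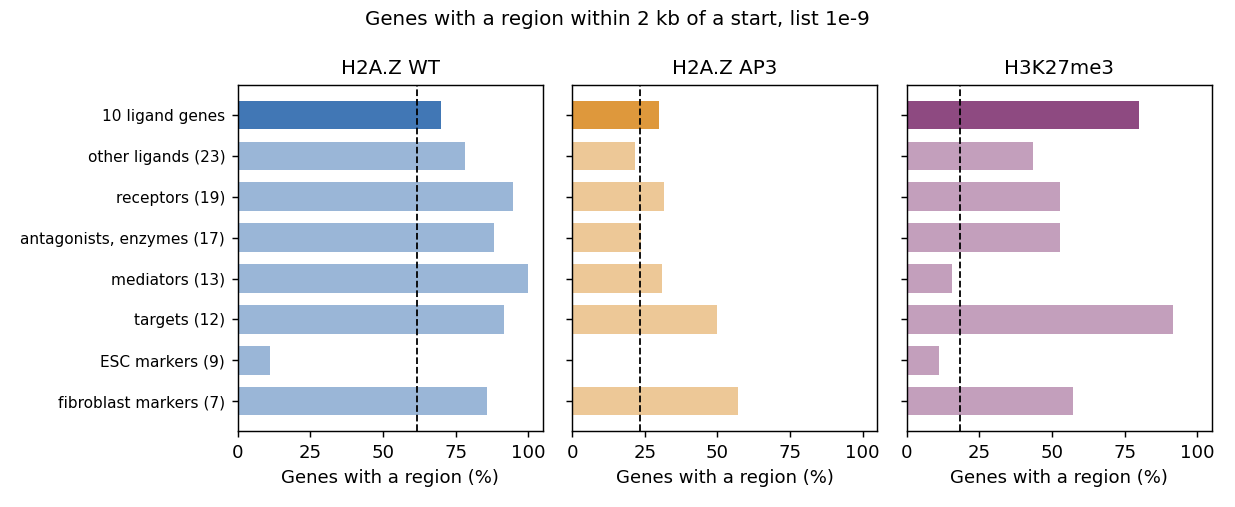
Percentage of genes with a region within 2 kb of a start in the lists of 1e-9 (x axis) for the 10 ligand genes and for 7 other gene lists (rows, number of genes in brackets), in a panel for each library. The dashed lines mark all protein-coding genes, 61.7%, 23.2% and 18.2% from left to right. In the H3K27me3 panel the ligand genes and the targets reach furthest, and the mediators and ESC markers lie left of the line.

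The rest of the pathway was described by lists of named genes, with the same definition of a call. Among 23 other ligands of the superfamily, WT called 18, AP3 5 and H3K27me3 10 at 1e-9. For this list and those below, the shares of all protein-coding genes were 61.7% for WT, 23.2% for AP3 and 18.2% for H3K27me3. Those with all 3 were Bmp3, Bmp8a, Gdf7 and Gdf10, and those with none were Bmp15 and Gdf9, growth factors of the oocyte, and Amh. Gdf3, a Nodal-related ligand of pluripotent cells, had 100 bp of WT and no other region. Gdf11 and Tgfb2 had H3K27me3 without WT, as Lefty1 did, with 1100 bp and 2800 bp.

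Among 19 receptors and co-receptors, WT called 18, AP3 6 and H3K27me3 10. The exception for WT was Tdgf1, the Nodal co-receptor Cripto, also among the ESC markers above, which had no region of any library, while its relative Cfc1 had 650 bp of WT and 50 bp of H3K27me3. The activin type II receptors Acvr2a and Acvr2b had WT alone. Among 17 antagonists and processing enzymes, WT called 15, AP3 4 and H3K27me3 9, with all 3 at the BMP antagonists Nog and Chrd and at Bmper. Cer1, an antagonist of Nodal and BMPs, had none, and Fst, which binds activin, had 425 bp of WT and 1925 bp of H3K27me3.

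Among 13 intracellular mediators, WT called 13, AP3 4 and H3K27me3 2, the latter at Smad6, an inhibitory Smad, and Smad9. At 1e-12 the WT count was 10. Smad4, the common partner, had 400 bp of WT and no AP3 or H3K27me3 region at 1e-9. Among 12 known targets, WT called 11, AP3 6 and H3K27me3 11, with Id1 called by no library. The AP3 calls at the targets numbered 6 at 1e-12 as well, at genes such as Gsc with 175 bp at 1e-9 and Mixl1 with 375 bp, both genes of the primitive streak. H3K27me3 regions were thus found at most targets, as at most of the 10 ligand genes. At the mediators their share, 15.4%, was close to the 18.2% of all genes. These lists differ in CpG content and length, which was not matched.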

How the data were processed

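ChIP-Seq was performed in mouse ESCs with 3 libraries, 1 each for H2A.Z WT, its AP3 mutant and H3K27me3. The authors aligned reads to mm9 (Bowtie 0.12.3 and bedtools per the submitters' processing notes), extended them, counted them in bins of 25 bp, and called enriched bins with a Poisson model at 1e-9 and a minimal fold enrichment over input. The deposited lists, 6 in all, give the start and end positions of regions at 1e-9 and at 1e-12 and no counts, heights or p-values. Libraries were called separately. The methods name only 1e-9, which gave the main values. Depth is unknown, and input and reads were not analysed here.

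A region counted where it shared at least 1 bp with a window around starts of GENCODE vM1 genes on the same build, computed in Python 3.11.15 with NumPy 2.4.6, Matplotlib 3.10.9 and Biopython 1.88. Upstream sequences were read from the NCBIM37 genome, and primers from the study's supplementary table. The counting was checked on toy genes and regions against a base-by-base count. All 10 members were named with every region in their windows, and for each the 2 genes with the smallest Euclidean distance over the share of the window covered in the 6 lists. The members and gene lists were chosen with earlier results of these data known. Alternatives were the stricter list, windows of 1 kb and 5 kb, a flank of 5 kb, protein-coding or most upstream starts, and regions of at least 100 bp. Joining both lists, leaving out chromosomes 6 and 8 and splitting genes by CpG count were chosen after seeing the data.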

Additional observations from a re-analysis of the deposited data

Results flagged for a closer look

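Of the 5 AP3 regions of the list at 1e-12 in the members and their flanks of 10 kb, 4 shared no base with the AP3 list at 1e-9, so they are in none of the AP3 counts at 1e-9. The count of 4 members with an AP3 region at 1e-12 in the gene and its flanks rests on them at Bmp7, Lefty1 and Inhbb. They were 25 bp and 400 bp at Bmp7, 100 bp at Lefty1 inside the WT region at Tmem63a, and 200 bp at Inhbb inside an intergenic WT region. In all, 23.4% of AP3, 8.05% of WT and 3.24% of H3K27me3 regions at 1e-12 lay outside the list at 1e-9. At the members it was 3 of 50 for WT, among them a region of 1200 bp over Inhbb coding sequence at +4275 to +5474, and 2 of 26 for H3K27me3. A stricter threshold alone would give a subset of the same bins. How else the lists differ was not tested.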

How the results depend on the processing

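The counts of members called by WT (7 or 8) and by H3K27me3 (8) within 2 kb of a start stayed within 1.5 times under all alternatives, as did the WT median. The AP3 count of 3 became 0 with regions of at least 100 bp, since its regions at Bmp6, Bmp7 and Inhba are 75 bp or shorter. It became 0 at 1e-12 as well, where the cause was not tested, and was 4 with a window of 5 kb. The added gene was Lefty1, through the AP3 region near Tmem63a that cannot be assigned to either gene. AP3 calls in the gene with 10 kb of flank were 4 at 1e-12 and 2 with regions of at least 100 bp, in place of 6. The H3K27me3 median of 512.5 bp became 287.5 bp at 1e-12 and 185 bp with a window of 1 kb. A window of 5 kb and both uses of the list of 1e-12 added Lefty1 to WT, the wide window again through the region near Tmem63a. Of 70 member values under alternatives for each library, 18 for WT, 48 for AP3 and 14 for H3K27me3 were 0 in both settings, which says nothing about stability. Of the others, 45 of 52 for WT, 15 of 22 for AP3 and 38 of 56 for H3K27me3 stayed within 1.5 times. No paired analysis was possible because each group is 1 library. Unknown depth limits every comparison between libraries, and calls of 25 to 75 bp rest on 1 to 3 bins.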

Other observations

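The genes most like each ligand gene over the 6 lists, by the share of the window covered, came from many families. Those nearest to Lefty1 were Gabrd and Baiap3, each with 850 bp of H3K27me3 and no WT or AP3 region, at distances of 1.41 and 1.82 percentage points. Nearest to Inhba were Areg, which encodes the EGF family ligand amphiregulin, and 4833427G06Rik, and nearest to Bmp4 were Myb, which encodes a transcription factor of blood progenitors, and Zmiz1. Bmp2 was nearest to Notum, a secreted Wnt antagonist, and Nrgn, Bmp6 to Nlrp6 and Vax1, Bmp7 to Klhl29 and Pou4f3, Lefty2 to Col16a1 and Abcg1, and Inhbb to Apoa5 and Hspa12a. Bmp5 and Nodal shared their values of 0 with 7775 other genes, so none could be named as most alike. None of the genes named here is itself a member.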
